A study of Mus musculus with 5 samples.

Results

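Interferon response and antigen presentation genes were examined as a group of 42 genes named by symbol: 29 sensors, transcription factors and induced effectors of the interferon response and 13 genes of antigen presentation. Of these, 38 had a row among the 18783 genes of the authors' expression table. Cd74, H2-Aa, Oas2 and Mx1 had no row in the table used here. The genes were measured by polyadenylated RNA sequencing in primary astrocyte cultures from newborn C57BL/6 mouse pups. All cultures were harvested on day 12 in vitro. The Aβ+DFMO group (1 library) received 1 µM amyloid-β (Aβ), a peptide that accumulates in the brain in Alzheimer's disease, together with 50 µM DFMO (difluoromethylornithine), an inhibitor of ornithine decarboxylase, for 5 days from day 7. The Aβ group (2 libraries) received 1 µM Aβ alone over the same days, and the Control group (2 libraries) was labelled naive. Nothing in the labels says that replicate libraries were grown as separate cultures, so p-values measure only the spread among libraries, which may be technical. The Aβ+DFMO group has no replicate. In its comparison, p-values and the intervals from them rest on the spread assumed by the model fitted across groups.

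Type I interferons signal through a paired receptor and JAK kinases to ISGF3, a transcription factor complex that contains STAT2 and IRF9 and binds the interferon-stimulated response element (ISRE) in the promoters of induced genes. Interferon-γ acts through GAS elements, and NLRC5 raises the class I antigen presentation genes. Class I molecules are a heavy chain paired with β2-microglobulin and loaded with peptides that the TAP transporter moves into the endoplasmic reticulum. Class II molecules are made mainly by professional antigen-presenting cells. Astrocytes and microglia both respond to interferon, and an interferon-induced gene programme has been described in glia around amyloid deposits.

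Upstream sequences are shown first, for the members that were called changed below (B2m, H2-K1, H2-D1 and Bst2) and for 4 interferon-induced genes that serve as a comparison (Ifit1, Ifit3, its near copy Ifit3b, and Isg15). RefSeq promoter windows of GRCm38.p6, each 300 bases long with 250 before the annotated start and 50 from it on, matched 29 of the 42 members by symbol. Each window is written 5′ to 3′ on its gene's own strand. Capitals mark the ISRE letters, GAAA, any 2 bases and GAAA again, or the letters of the NF-κB motif (κB), GGG, any 2 bases, TT, any 1 base and CC, read on either strand. The windows lie at chr2:122147437-122147736 for B2m (plus strand), chr17:34000298-34000597 for H2-K1 (minus), chr17:35262844-35263143 for H2-D1 (plus) and chr8:71537423-71537722 for Bst2 (minus). Those of the other four lie at chr19:34640639-34640938 for Ifit1 (plus), chr19:34583279-34583578 for Ifit3 (plus), chr19:34607707-34608006 for Ifit3b (plus) and chr4:156200769-156201068 for Isg15 (minus).
B2m: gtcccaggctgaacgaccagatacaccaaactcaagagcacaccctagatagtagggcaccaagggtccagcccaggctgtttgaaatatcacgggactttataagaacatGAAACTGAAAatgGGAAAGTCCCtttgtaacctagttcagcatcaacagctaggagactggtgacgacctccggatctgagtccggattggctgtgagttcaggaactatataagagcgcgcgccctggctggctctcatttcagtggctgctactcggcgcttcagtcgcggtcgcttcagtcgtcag
H2-K1: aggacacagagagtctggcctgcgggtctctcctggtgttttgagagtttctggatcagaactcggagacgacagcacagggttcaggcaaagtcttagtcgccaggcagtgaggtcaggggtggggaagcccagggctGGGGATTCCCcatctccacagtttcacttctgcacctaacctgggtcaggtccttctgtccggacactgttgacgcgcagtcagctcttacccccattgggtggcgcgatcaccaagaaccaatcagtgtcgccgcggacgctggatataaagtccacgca
H2-D1: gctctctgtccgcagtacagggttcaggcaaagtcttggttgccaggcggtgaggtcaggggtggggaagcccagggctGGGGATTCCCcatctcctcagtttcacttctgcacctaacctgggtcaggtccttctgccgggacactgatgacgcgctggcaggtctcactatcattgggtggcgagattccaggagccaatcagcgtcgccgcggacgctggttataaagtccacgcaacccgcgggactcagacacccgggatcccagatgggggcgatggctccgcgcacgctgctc
Bst2: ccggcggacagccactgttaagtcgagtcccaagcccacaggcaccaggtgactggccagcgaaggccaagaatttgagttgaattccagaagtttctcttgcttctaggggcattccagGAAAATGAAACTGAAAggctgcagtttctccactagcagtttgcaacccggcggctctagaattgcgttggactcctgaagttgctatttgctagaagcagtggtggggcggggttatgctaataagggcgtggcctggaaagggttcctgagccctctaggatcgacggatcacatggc
Ifit1: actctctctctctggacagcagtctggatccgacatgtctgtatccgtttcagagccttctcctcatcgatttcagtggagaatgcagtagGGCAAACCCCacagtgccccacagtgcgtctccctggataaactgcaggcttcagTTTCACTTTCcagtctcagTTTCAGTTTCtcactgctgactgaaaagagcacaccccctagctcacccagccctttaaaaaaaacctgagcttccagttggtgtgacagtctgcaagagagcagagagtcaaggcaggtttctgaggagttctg
Ifit3: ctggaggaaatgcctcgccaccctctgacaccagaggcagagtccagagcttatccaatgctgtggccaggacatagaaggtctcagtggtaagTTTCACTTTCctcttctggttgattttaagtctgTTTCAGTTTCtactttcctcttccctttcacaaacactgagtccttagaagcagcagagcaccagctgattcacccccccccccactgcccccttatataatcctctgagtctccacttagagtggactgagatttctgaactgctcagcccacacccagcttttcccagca
Ifit3b: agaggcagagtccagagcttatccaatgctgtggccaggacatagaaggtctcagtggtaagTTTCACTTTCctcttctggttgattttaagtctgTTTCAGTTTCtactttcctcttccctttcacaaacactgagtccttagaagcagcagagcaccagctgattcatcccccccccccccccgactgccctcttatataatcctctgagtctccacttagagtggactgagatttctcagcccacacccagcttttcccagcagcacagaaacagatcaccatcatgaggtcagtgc
Isg15: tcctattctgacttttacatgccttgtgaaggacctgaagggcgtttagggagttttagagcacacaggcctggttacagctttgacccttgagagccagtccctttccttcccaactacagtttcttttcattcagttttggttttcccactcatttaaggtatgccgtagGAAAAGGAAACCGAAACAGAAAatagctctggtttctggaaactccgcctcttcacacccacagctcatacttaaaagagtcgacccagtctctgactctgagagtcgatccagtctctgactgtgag

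In the B2m window the ISRE letters began 139 bases before the start and the κB letters 126 bases before it. H2-K1 and H2-D1, the classical class I heavy chains, held κB letters 111 and 171 bases before their starts and no ISRE letters, and their windows were identical at 206 of 227 aligned bases (90.7%). Bst2 held overlapping ISRE letters 130 and 124 bases before its start, and those at 130 bases also overlapped GAS letters (TTCNNNGAA). The windows of Ifit3 and Ifit3b were identical at 258 of 260 aligned bases (99.2%), and each held the ISRE letters at 2 places. Isg15 held them at 3 overlapping places within 78 bases of its start. Over all 29 matched members, 13 (44.8%) held the ISRE letters, against 3.99% of 27025 genes with a window. The κB letters were in 7 members (24.1%), against 5.48% of all genes, and the GAS letters in 5 (17.2%), against 9.55%. The members were named for these pathways, so higher shares can follow from that choice and are no result of the expression data. H2-Aa is among the 7 and had no measured expression value. A match of letters is a description of the sequence and not a binding site. The search allowed no mismatch outside the free bases, so a window without the letters may still hold a variant of the element.

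**Figure D1:**
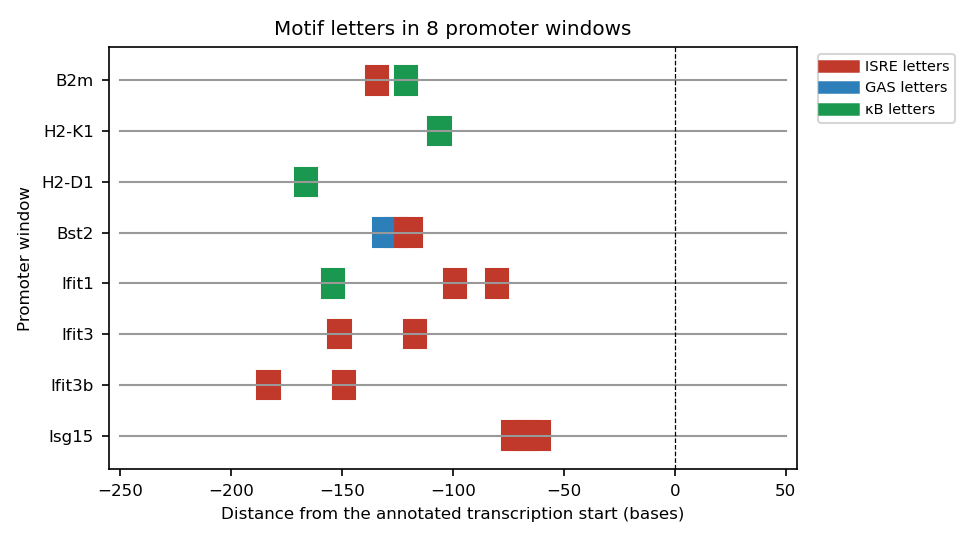
Places of the ISRE, GAS and κB letters in the 8 promoter windows printed above, by distance from the annotated transcription start in bases. The ISRE letters of B2m, Bst2, Ifit1, Ifit3, Ifit3b and Isg15 begin between 66 and 188 bases before the start. By exact match, H2-K1 and H2-D1 hold κB letters only.

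Gene values were used as the authors' group means, a normalized signal, because no value per library was used here. The Aβ+DFMO library had 4825677 reads, against 46886111 and 105544237 in the Aβ libraries and 49676004 and 49020833 in the Control libraries, which is 9.72 to 21.9 times fewer. A read in the Aβ+DFMO library was worth an estimated 7.45 normalized units, and 11 of the 38 measured members had fewer than 10 estimated reads there. The astrocyte label was checked against 11 astrocyte markers, which were all present and summed to 148689 normalized units in Aβ+DFMO, 188840 in Aβ and 189775 in Control. Microglia and macrophage markers were also all present (21 of 21), so the cultures held more than 1 cell type. Fibroblast and mural (8 of 8) and oligodendrocyte lineage markers (10 of 10) were present too, as were 7 of 8 neuron markers. In Control these lists summed to 127384, 47032 and 22528 normalized units. In such a mixture, fewer cells of a type and less RNA per cell cannot be told apart. The call rule was an adjusted p under 0.05 by the authors' deposited DESeq2 table. Errors are standard errors (SE) implied by the deposited log2 ratio and p-value, on the log2 scale, and the 95% intervals follow from them. Because Aβ+DFMO was a single library, its treatment and any other property of that library cannot be told apart.

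**Figure D2:**
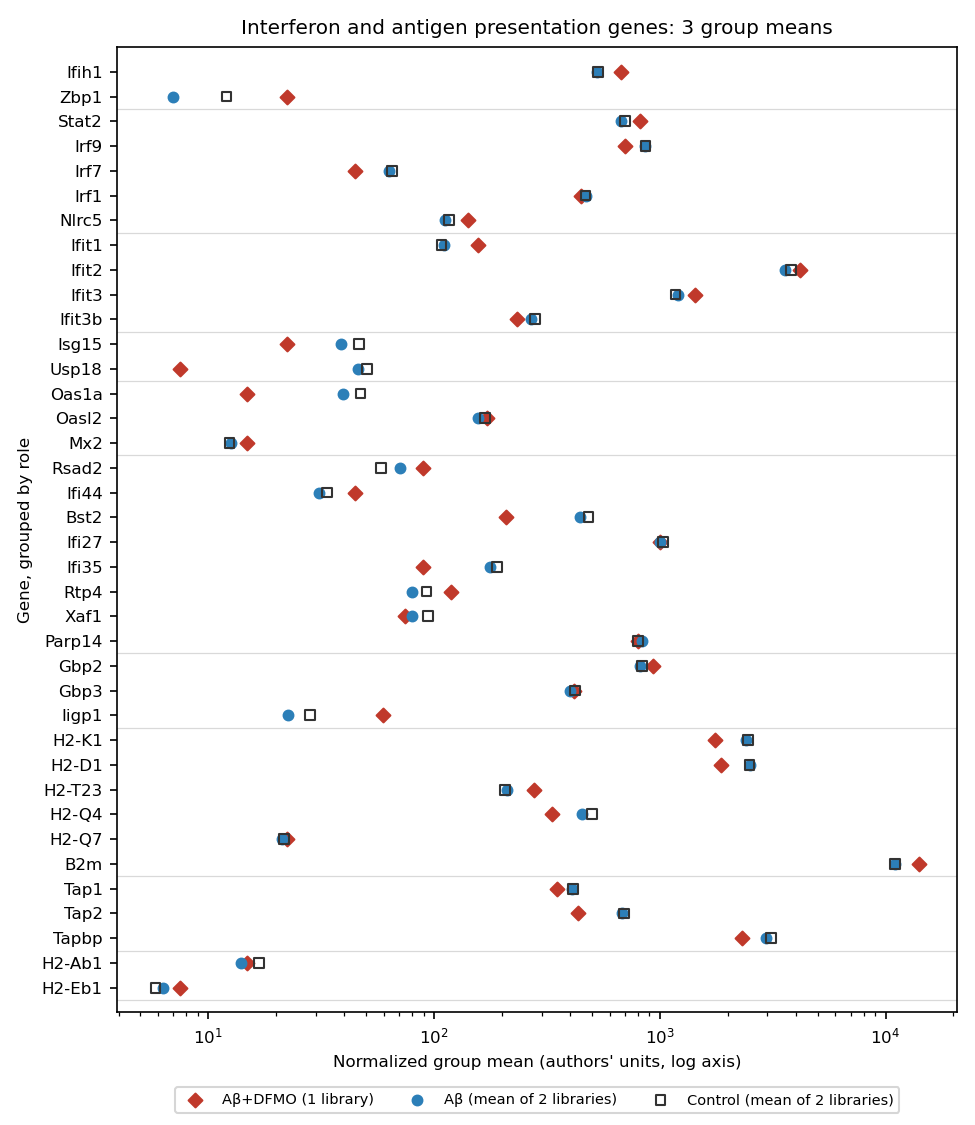
Normalized group means of the 38 measured members on a log axis, with red diamonds for Aβ+DFMO, blue circles for Aβ and open squares for Control, grouped by role from sensors at the top to class II genes at the bottom. Circles and squares nearly coincide for genes with means over 200, while the diamonds lie on either side of them, with Usp18 and Bst2 to the left and B2m to the right.

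The genes spanned a wide range of levels. Per 1000 bases of the longest coding transcript, B2m stood highest, at 16335 normalized units in Aβ+DFMO, 12751 in Aβ and 12776 in Control. H2-K1 stood next in Aβ, at 1082 in Aβ+DFMO, 1487 in Aβ and 1518 in Control on the same scale. H2-K1, H2-D1, Tapbp, Ifi27, Ifit2 and Ifit3, without the length scale, had Control means of 1036 (Ifi27) or more. Near the other end, per 1000 bases, Mx2 had 6.17 in Aβ+DFMO, 5.23 in Aβ and 5.13 in Control. The class II gene H2-Eb1 had 4.47 in Aβ+DFMO, 3.78 in Aβ and 3.50 in Control. Summed over the 38 members without the length scale, the means came to 34346 in Aβ+DFMO, 32799 in Aβ and 33434 in Control.

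The first comparison set Aβ against Control and asks whether 5 days of amyloid-β changed the interferon and antigen presentation genes. None was called: 0 of 38 passed in the authors' deposited DESeq2 table, where 0.287% of all genes were called (54 of 18783). None of the 38 had an unadjusted p under 0.05 either, against 1.72% of all genes, and the smallest unadjusted p in the authors' deposited table was 0.361, for Ifit2. The median log2 ratio of the members was -0.05, with 9 above 0 and 29 below, and that of all genes was 0.00. For the 20 members whose mean in Aβ was 200 or more, the log2 ratios lay between -0.15 and 0.06, and each 95% interval stayed within a 1.5-fold change either way. The other 18 members, with lower means, had log2 ratios between -0.78 and 0.29 and intervals that reached beyond that. The deposited p-values of this comparison ran high over all genes, with 76.6% over 0.5, so a gene that was not called is not shown to be unchanged.

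By role, the well-measured genes of each step lay close to their Control level. The sensor Ifih1, which detects long double-stranded RNA, had a mean of 529 in Aβ and 532 in Control (log2 ratio -0.01, SE 0.150). Stat2 and Irf9, which are parts of ISGF3, had 674 and 861 in Aβ, against 703 and 865 in Control. Ifit2, which binds RNA and had the highest unscaled mean of the induced effectors, had 3601 in Aβ and 3798 in Control (log2 ratio -0.08, SE 0.0842). Its relative Ifit3 had 1199 in Aβ and 1175 in Control. Isg15, the ubiquitin-like modifier, had 38.8 in Aβ and 46.4 in Control, and Usp18, the protease that removes it, had 46.0 in Aβ and 50.3 in Control. Of the antigen presentation genes, B2m had 10966 in Aβ and 10987 in Control (log2 ratio -0.00, SE 0.0752). H2-K1 had 2408 in Aβ and 2457 in Control, and H2-D1 had 2522 in Aβ and 2499 in Control. The largest log2 ratio in size was that of Zbp1, a sensor of Z-form nucleic acids, at -0.78 with an SE of 0.912, from means of 7.004 in Aβ and 12.0 in Control. The group medians were -0.06 for the 27 measured interferon genes and -0.03 for the 11 measured antigen presentation genes.

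The second comparison set Aβ+DFMO against Aβ and asks whether the ornithine decarboxylase inhibitor changed these genes in Aβ-treated cultures. Of the 38 members, 4 were called in the authors' deposited DESeq2 table (10.5%), against 9.18% of all genes, a share near the background. With the trend of the log2 ratio over transcript GC content removed, 0 of the 38 were called. B2m was the only one higher, where 4.0% of all genes were higher. Bst2, H2-K1 and H2-D1 were lower, where 5.18% of all genes were lower. At an unadjusted p under 0.05 in the authors' deposited table the count was 6 of 38, with Tap2 and Tapbp added. At that limit 3931 of all 18783 genes passed. The median log2 ratio was 0.07, with 20 members above 0 and 18 below, and that of all genes was 0.01.

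**Figure D3:**
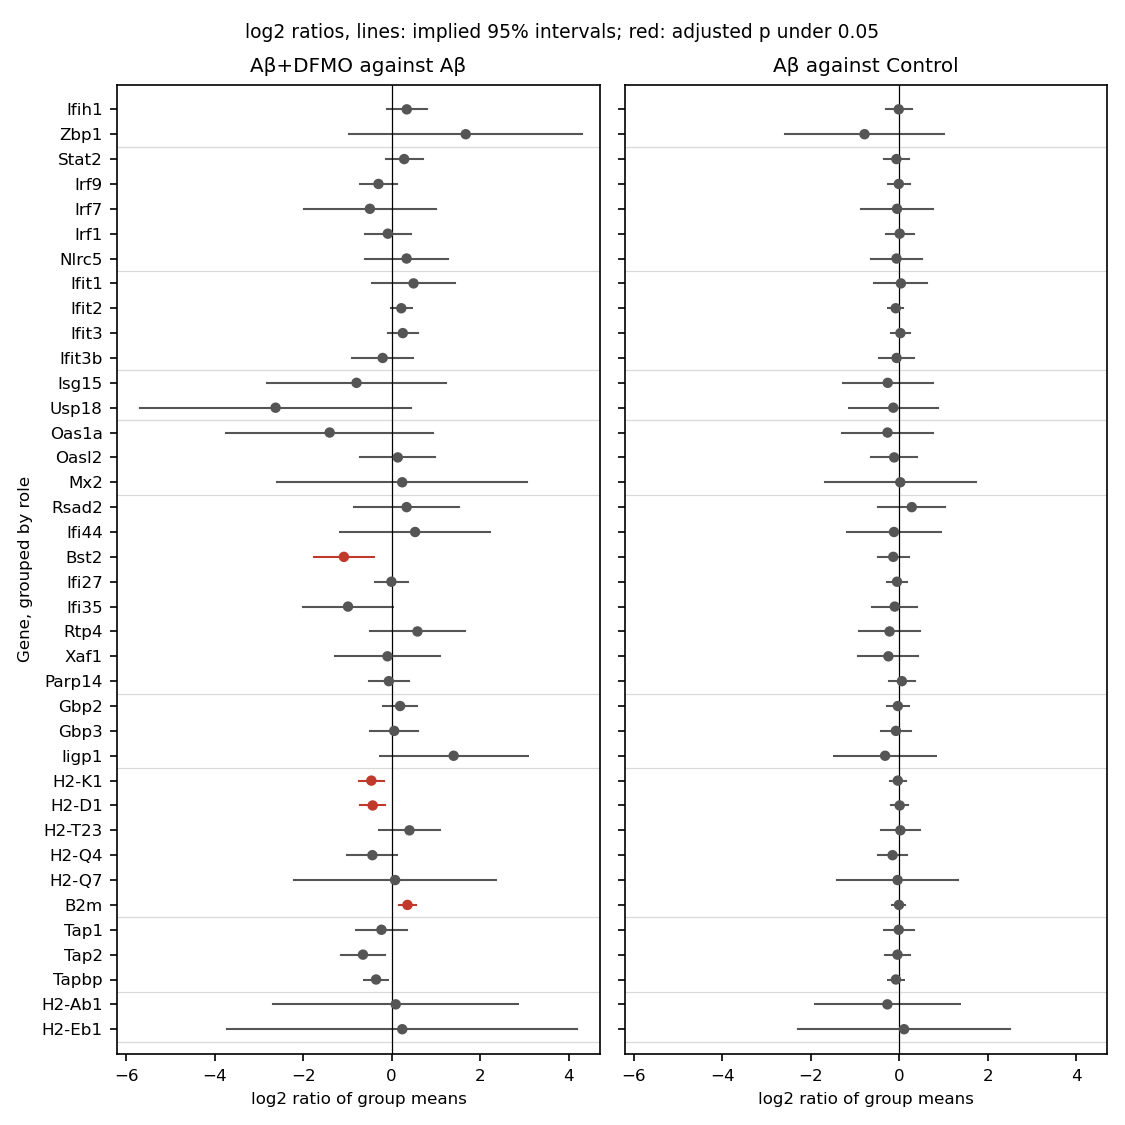
The log2 ratio of each measured member for Aβ+DFMO against Aβ (left) and Aβ against Control (right), with implied 95% intervals as lines and called genes in red. On the left B2m lies above 0 and Bst2, H2-K1 and H2-D1 below it, and on the right none is red.

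Within class I, the light chain B2m was called higher and the classical heavy chains H2-K1 and H2-D1 were called lower, and none of these calls held with the GC trend removed (log2 ratios 0.07, -0.10 and -0.11). B2m (β2-microglobulin, chr2:122147686-122153083, plus strand) had a mean of 14048 in Aβ+DFMO, 10966 in Aβ and 10987 in Control. Its log2 ratio to Aβ was 0.36 (SE 0.0973, interval 0.17 to 0.55), with an adjusted p of 0.00611 in the authors' deposited DESeq2 table. H2-K1 (chr17:33996017-34000347, minus strand), which presents peptides to CD8 T cells, had 1751 in Aβ+DFMO, 2408 in Aβ and 2457 in Control. Its log2 ratio was -0.46 (SE 0.146, interval -0.75 to -0.17), with an adjusted p of 0.0249 in the authors' deposited DESeq2 table. H2-D1 (chr17:35262730-35267499, plus strand), the other classical heavy chain, had 1873 in Aβ+DFMO, 2522 in Aβ and 2499 in Control. Its log2 ratio was -0.43 (SE 0.145, interval -0.71 to -0.14), with an adjusted p of 0.0383 in the authors' deposited DESeq2 table. For each of these genes, the Aβ mean lay near the Control mean and the Aβ+DFMO mean stood apart from both. The non-classical heavy chains were not called. H2-Q4 had 334 in Aβ+DFMO, 451 in Aβ and 500.2 in Control, and its log2 ratio to Aβ was -0.44 (SE 0.289). H2-T23 had 278 in Aβ+DFMO, 210.1 in Aβ and 206 in Control, with an interval of -0.29 to 1.09 on the log2 scale. H2-Q7 had 22.4 in Aβ+DFMO, 21.2 in Aβ and 21.7 in Control. The heavy chains are close copies in coding sequence too, and no source used here says how reads shared among them were counted, so their separate values are uncertain.

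None of the 3 measured peptide-loading genes was called. All had log2 ratios below 0 as deposited, and with the GC trend removed Tap1 (0.19) and Tapbp (0.06) lay above 0 and Tap2 (-0.25) below it. Tapbp (tapasin), which holds class I molecules at the transporter, had 2323 in Aβ+DFMO, 2966 in Aβ and 3119 in Control. Its log2 ratio was -0.35 (SE 0.134), with an adjusted p of 0.0761 in the authors' deposited DESeq2 table. Tap2, a subunit of the peptide transporter, had 432 in Aβ+DFMO, 678 in Aβ and 695 in Control, and its log2 ratio was -0.65 (SE 0.252). Its adjusted p in the authors' deposited DESeq2 table was 0.0860. The other transporter subunit, Tap1, had 349 in Aβ+DFMO, 410 in Aβ and 412 in Control. Tap1 and the immunoproteasome gene Psmb9 each had a fractional number of estimated reads in the Aβ+DFMO library, and together they had 50. The class II β-chain genes were near the limit of that library: H2-Ab1 had 14.9 in Aβ+DFMO, 14.0 in Aβ and 16.8 in Control, from 2 estimated reads. H2-Eb1 had 7.45 in Aβ+DFMO, 6.31 in Aβ and 5.84 in Control, from 1 estimated read.

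Among the interferon genes, Bst2 (tetherin, chr8:71534255-71537456, minus strand), a membrane protein that holds budding virus particles at the cell surface, was the only one called. It had 209 in Aβ+DFMO, 441 in Aβ and 483 in Control, from about 28 estimated reads in the Aβ+DFMO library. Its log2 ratio to Aβ was -1.08 (SE 0.343, interval -1.75 to -0.41), with an adjusted p of 0.0246 in the authors' deposited DESeq2 table. Ifi35, an effector that is also interferon-induced, had 89.4 in Aβ+DFMO, 177 in Aβ and 189.8 in Control, and its interval of -1.99 to 0.02 reached 0. Ifi27 had 999 in Aβ+DFMO, 1002 in Aβ and 1036 in Control, and Parp14, an ADP-ribosyltransferase, had 797 in Aβ+DFMO, 833 in Aβ and 798 in Control. The remaining 4 effectors (Rsad2, Ifi44, Rtp4 and Xaf1) had means between 44.7 and 119 in Aβ+DFMO, between 31.0 and 79.6 in Aβ and between 33.5 and 94.1 in Control.

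The sensors and transcription factors were not called. Ifih1 had 671 in Aβ+DFMO, 529 in Aβ and 532 in Control (log2 ratio to Aβ 0.34, SE 0.233). Zbp1 had 22.4 in Aβ+DFMO, from 3 estimated reads, 7.004 in Aβ and 12.0 in Control. Its ratio to the Aβ mean was 3.19, with an exact Poisson 95% interval of 0.658 to 9.33 that takes the Aβ mean as fixed and covers counting error only. Stat2 had 819.8 in Aβ+DFMO, 674 in Aβ and 703 in Control, whereas its ISGF3 partner Irf9 had 701 in Aβ+DFMO, 861 in Aβ and 865 in Control. Their log2 ratios to Aβ were 0.28 and -0.30, and neither passed. Irf1, the interferon-γ-induced factor, had 446 in Aβ+DFMO, 473 in Aβ and 469 in Control. Irf7, which amplifies the type I response, had 44.7 in Aβ+DFMO, 62.9 in Aβ and 65.0 in Control. Nlrc5, the transactivator of class I genes, had 142 in Aβ+DFMO, from 19 estimated reads, 112 in Aβ and 117 in Control. Its log2 ratio to Aβ was 0.34 (SE 0.479).

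The IFIT genes are among the most strongly induced targets of type I interferon and Ifit2 and Ifit3 had the highest unscaled means of the induced effectors. Ifit2 (chr19:34550694-34576419, plus strand) had 4188 in Aβ+DFMO, 3601 in Aβ and 3798 in Control, with a log2 ratio to Aβ of 0.22 (SE 0.118, interval -0.01 to 0.45) as deposited and -0.04 with the GC trend removed. Ifit3 had 1428 in Aβ+DFMO, 1199 in Aβ and 1175 in Control, and Ifit1 had 156 in Aβ+DFMO, 111 in Aβ and 108 in Control. Ifit3b, the near copy of Ifit3, had 234 in Aβ+DFMO, 269 in Aβ and 280.0 in Control. The estimated reads of Ifit3 and Ifit3b in the Aβ+DFMO library were fractional, 191.6 and 31.4, and summed to 223, so the split of reads between the copies is uncertain. Summed, the pair had 1662 in Aβ+DFMO, 1469 in Aβ and 1455 in Control, a log2 ratio to Aβ of 0.18. None of the 4 was called.

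Several of the remaining interferon-induced members rested on few reads. Usp18 had 7.45 in Aβ+DFMO, 46.0 in Aβ and 50.3 in Control, and its log2 ratio to Aβ of -2.62 was the lowest of the 38. That value came from 1 estimated read where the Aβ mean corresponds to 6.17, the ratio of the means was 0.162 (exact Poisson 95% interval 0.004 to 0.903), and the adjusted p in the authors' deposited DESeq2 table was 0.350. Isg15 had 22.4 in Aβ+DFMO, 38.8 in Aβ and 46.4 in Control, from 3 estimated reads where the Aβ mean corresponds to 5.20. Oas1a, a synthetase that activates RNase L, had 14.9 in Aβ+DFMO, 39.4 in Aβ and 47.2 in Control, from 2 estimated reads. Mx2, of the Mx family of antiviral GTPases and annotated as a polymorphic pseudogene, had 14.9 in Aβ+DFMO, 12.6 in Aβ and 12.4 in Control, also from 2. Oasl2, related to Oas1a and better measured, had 171 in Aβ+DFMO, 156 in Aβ and 168 in Control. Among the GTPases, Gbp2 had 932 in Aβ+DFMO, 816 in Aβ and 832 in Control, and Gbp3 had 417 in Aβ+DFMO, 401 in Aβ and 421 in Control. Iigp1, which attacks the vacuoles of intracellular parasites, had 59.6 in Aβ+DFMO, 22.6 in Aβ and 28.1 in Control, from 8 estimated reads. For Isg15 and Oas1a the ratios to the Aβ mean were 0.577 (exact Poisson 95% interval 0.119 to 1.68) and 0.379 (0.046 to 1.37). These intervals include 1, so no difference was detected in either gene at this depth.

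The direction of the log2 ratio in Aβ+DFMO against Aβ moved with the GC content of the transcript. Over the 11660 genes that had a GC value and a mean of 200 or more in Aβ, Spearman's rho between GC content and the log2 ratio was -0.71 across genes, which are not independent, and the running median went down to -0.70 at high GC and up to 0.43 at low GC. In Aβ against Control the same rho was 0.12. The members' GC content ran from 39.3% to 57.3%, around an all-gene median of 49.5%. Of the 22 members at or above that median, 15 had log2 ratios below 0 and 7 above, with a median of -0.33. Of the 16 members below it, 13 had log2 ratios above 0 and 3 below, with a median of 0.25. B2m had a GC content of 41.2%, whereas H2-K1 had 56.3%, H2-D1 55.9%, Bst2 55.3%, Tap2 56.9% and Tapbp 57.1%.

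**Figure D4:**
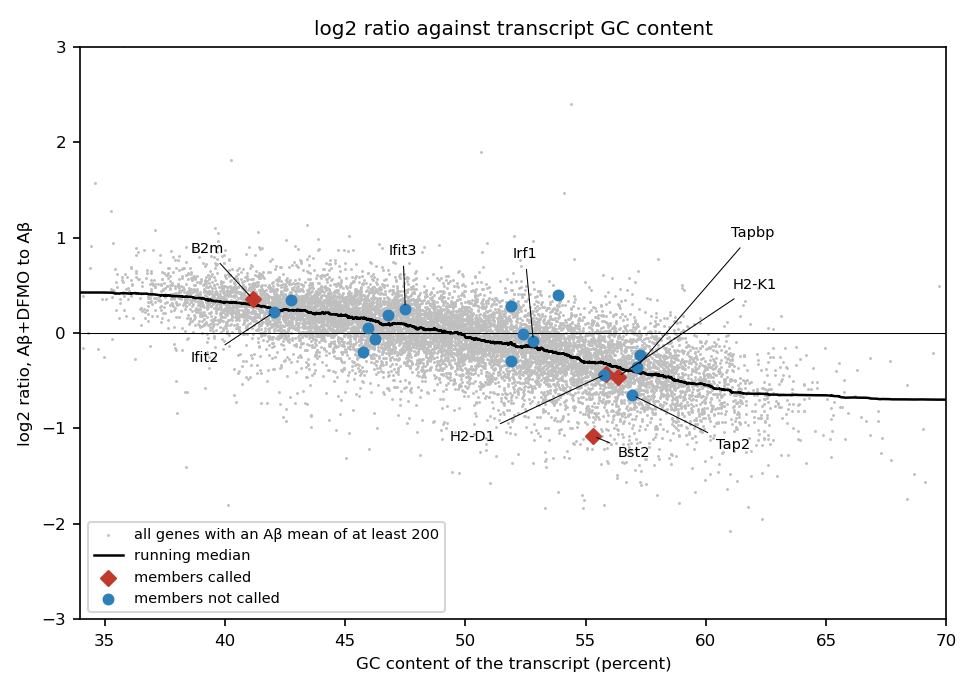
Log2 ratio of Aβ+DFMO to Aβ against the GC content of the longest coding transcript for 11660 genes whose mean in Aβ was 200 or more (grey), with their running median (line) and the 20 members among them (called in red, others in blue), leaving 17 genes outside the axes. B2m, H2-K1, H2-D1, Tapbp and Ifit2 lie close to the running median and Bst2 below it.

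With the running median subtracted, none of the 38 members was called (computed from the authors' deposited DESeq2 ratios with the implied SE, Benjamini-Hochberg adjusted over 18459 genes), against 1.55% of all genes (0.823% higher and 0.731% lower). The log2 ratio of B2m was then 0.07, that of H2-K1 -0.10, that of H2-D1 -0.11 and that of Tapbp 0.06. With GC content taken as the median over a gene's transcripts, a setting chosen after seeing the data, they were 0.05 for B2m, -0.12 for H2-K1, -0.29 for H2-D1 and 0.28 for Tapbp, and again none was called. Bst2 had a log2 ratio of -0.77 with the trend removed, against -1.08 as deposited, and was no longer called (adjusted p 0.401 from the DESeq2 ratios, unadjusted 0.0244). The interferon genes had a median of 0.14 as deposited and 0.10 with the trend removed, and the antigen presentation genes a median of -0.23 as deposited and 0.07 with it removed. Their median GC contents were 49.2% and 56.3%. Whether GC content, depth or the treatment set the trend cannot be told apart with 1 library.

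Aβ+DFMO against Control had no test here, and is described by the ratio of means. Because Aβ and Control lay close together, the log2 ratios were near those against Aβ: 0.35 for B2m, -0.49 for H2-K1, -0.42 for H2-D1 and -1.21 for Bst2. The median over the 38 members was -0.01, and that of all genes was 0.02. These ratios share the Aβ+DFMO library with the comparison above.

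The wider interferon pathway was described by 4 further lists. The ligands that start the response were not seen: Ifnb1, Ifna1, Ifna2, Ifna4, Ifng, Ifnl2 and Ifnl3 had no row in the table used here, and 5 of the 12 genes of ligands and receptors were measured. The receptor subunits were present, and none of the 5 was called in either comparison. Ifnar1 had 2549 in Aβ+DFMO, 2647 in Aβ and 2887 in Control, and Ifngr1 had 2347 in Aβ+DFMO, 1972 in Aβ and 2158 in Control. Of 22 measured signalling and sensing genes, none was called in Aβ against Control and 2 fell in Aβ+DFMO against Aβ (9.09%, against 5.18% of all genes lower and 9.18% called in either direction). Socs3, a feedback inhibitor of cytokine receptors, had 574 in Aβ+DFMO, 1088 in Aβ and 1245 in Control. Its log2 ratio was -0.92, with an adjusted p of 8.37e-04 in the authors' deposited DESeq2 table. Stat3 had 6521 in Aβ+DFMO, 8115 in Aβ and 8225 in Control (log2 ratio -0.32). Neither was called with the GC trend removed. Tlr7 was then the only one of the list called (log2 ratio -0.79), where 0.731% of all genes were lower. As deposited, the log2 ratio of Tlr7 was -0.48 and it was not called.

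Of 49 measured further interferon-induced genes, 1 fell in Aβ against Control, where 0.176% of all genes were lower. Ly6e, a surface protein, had 504 in Aβ and 765 in Control, a log2 ratio of -0.60 (SE 0.149) with an adjusted p of 0.0206 in the authors' deposited DESeq2 table. In Aβ+DFMO against Aβ, 2 of the 49 fell (4.08%, against 5.18% of all genes). Adar, the RNA-editing enzyme, had 1066 in Aβ+DFMO, 1544 in Aβ and 1459 in Control (log2 ratio to Aβ -0.53). Ifitm3, which blocks virus entry, had 2340 in Aβ+DFMO, 3156 in Aβ and 3379 in Control (log2 ratio to Aβ -0.43). Of 28 measured further antigen presentation genes, none was called in Aβ against Control and 2 fell in Aβ+DFMO against Aβ (7.14%, against 5.18% of all genes). Psmb8, an immunoproteasome subunit, had 59.6 in Aβ+DFMO, from 8 estimated reads, 208 in Aβ and 219 in Control (log2 ratio to Aβ -1.80). Fcgrt, the Fc receptor that recycles antibodies and pairs with β2-microglobulin, had 224 in Aβ+DFMO, 514 in Aβ and 499 in Control (log2 ratio to Aβ -1.20). None of these 4 was called with the GC trend removed. The median log2 ratio in Aβ+DFMO against Aβ was -0.05 for ligands and receptors, -0.04 for signalling and sensing, 0.05 for the further induced genes and -0.13 for the further antigen presentation genes. In Aβ against Control the medians of these lists lay between -0.13 and -0.03.

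Microglia and macrophages also respond to interferon and present antigen, and their markers moved in these cultures. The 21 markers summed to 46288 normalized units in Aβ+DFMO, 63829 in Aβ and 67361 in Control, and none was at 0. In Aβ against Control 9 fell and 1 rose, where 0.176% of all genes were lower and 0.112% higher, with a median log2 ratio of -0.44, whereas the 38 members had a median of -0.05. Fcrls had 872 in Aβ+DFMO, 1016 in Aβ and 2814 in Control, and C1qc had 909 in Aβ+DFMO, 2264 in Aβ and 3078 in Control. Lyz2, the marker that rose with Aβ, had 23385 in Aβ+DFMO, 33225 in Aβ and 25844 in Control. In Aβ+DFMO against Aβ 7 markers fell and none rose, with a median of -0.40, and 3 (Cd68, Lyz2 and C1qc) were still called lower with the GC trend removed. Spi1, which encodes a myeloid transcription factor, had 89.4 in Aβ+DFMO, 308 in Aβ and 386 in Control. The part of these cells in the lower Bst2, H2-K1, H2-D1, Psmb8 and Fcgrt of the Aβ+DFMO library was not tested. In the same comparison, where 5.18% of all genes were lower, 5 of 11 astrocyte markers and 8 of 10 oligodendrocyte lineage markers fell. With the GC trend removed, 4 of 11 and 4 of 10 were lower, where 0.731% of all genes were. Other lists did not follow this direction. Among 8 fibroblast and mural markers, 1 was called higher and none lower, both as deposited and with the GC trend removed. Among 7 neuron markers, 1 was called higher and 2 lower as deposited. With the trend removed, 1 was higher and 1 lower. No call was made among 5 endothelial markers under either setting. Of 12 lymphocyte and dendritic cell markers, 9 had no row in the table used here.

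The authors' deposited pathway table gave the gene set for antigen processing and presentation a ratio of 0.973 for Aβ+DFMO to Aβ, with an adjusted p of 0.456, and a ratio of 1.05 for Aβ to Control, with an adjusted p of 0.598. For RIG-I-like receptor signalling the authors' deposited table gave a ratio of 1.06 for Aβ+DFMO to Aβ (adjusted p 4.81e-13) and 0.975 for Aβ to Control (adjusted p 0.217). For cytosolic DNA sensing the authors' deposited table gave 0.900 for Aβ+DFMO to Aβ (adjusted p 3.62e-12) and 1.01 for Aβ to Control (adjusted p 0.0521). No source used here names the test behind the pathway p-values.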

How the data were processed

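The libraries were poly(A)-selected and sequenced as read pairs, per the labels' protocols. The submitters' processing notes name STAR 2.7.3a, Partek, DESeq2 and FastQC, and the builds mm10 and GRCm39, without their roles. No source used here names the counter, the gene models or any filter.

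Per the file headers, the deposited DESeq2 table gives least-squares group means (a normalized signal), the p-value, its adjusted value, the ratio and the log2 ratio of each comparison. The deposited library report gives reads per library and the percent of reads in exons, 84.42 to 85.18. Deposited log2 ratios equalled the log2 of the quotient of means, and deposited adjusted p-values equalled Benjamini-Hochberg values over 18783 genes. Counts per library were not used here, so the edgeR test planned for counts was replaced by the authors' DESeq2 table, the fallback named with it.

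From these, the implied SE (size of the log2 ratio over the normal quantile matching p, a Wald assumption) and 95% intervals were computed with Python 3.11.15, pandas 2.3.3 and SciPy 1.17.1. Reads in the Aβ+DFMO library were estimated from steps of 7.45 units, of which 80.2% of 7242 low genes were whole multiples within 0.05 of a read, too few for a count test. Below 100 estimated reads, 5 of 28 members were not whole. The GC trend was a running median over 501 genes, with GC content from the longest protein-coding GENCODE transcript of GRCm38. Promoter windows are from RefSeq. Gene coordinates are from the GENCODE annotation of GRCm38.

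Members and lists were chosen with earlier results of these data known. Full values are given for called members and, in each role, for the 2 members with the highest means and that with the smallest p in each comparison. In the wider lists, up to 4 called genes or the smallest p are named. Alternatives tried were other adjusted p limits, a filter at a mean of 200, centring, a pseudocount of 10 and the GC trend.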

Additional observations from a re-analysis of the deposited data

How the results depend on the processing

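In Aβ against Control, the count of members called was 0 under each of the alternatives run. In Aβ+DFMO against Aβ, the count of 4 became 6 at an adjusted p under 0.1 (12.8% of all genes), where Tap2 and Tapbp were added, and 1 (B2m) at an adjusted p under 0.01 (4.72% of all genes). It was 5 of 20 with only genes whose mean over the groups was at least 200 (17.7% of the genes kept by this filter). With the ratios centred on the median of all genes it was 4. It was 0 with the GC trend removed and also 0 with GC content taken as the median over transcripts, an alternative chosen after seeing the data, under which 338 genes were called. Over all genes the count of 1724 became 2398 under the first limit and 887 under the second. It was 2074 among the genes kept by the filter. With the GC trend removed it was 287 among the 18459 genes with a GC value. The members' log2 ratios kept their sign in both comparisons under centring and under a pseudocount of 10, which gave no new p. With the GC trend removed, in Aβ+DFMO against Aβ, the 4 called members lost their call, 6 others (H2-Q4, Ifih1, Ifit2, Tap1, Tap2 and Tapbp) moved by more than their SE, and 6 of 38 turned sign (Gbp3, Ifi27, Ifit2, Irf1, Tap1 and Tapbp). In Aβ against Control 1 of 38 turned sign (B2m, -0.00 as deposited and 0.02 without the trend).

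No paired analysis was possible because the values used were group means, with no column per library. For the same reason another count tool, leaving out each library and a replicate block were not run. The precision is limited by the depth of the single Aβ+DFMO library.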
